A study of Homo sapiens with 4 samples.

Results

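GATA1 and the factors known to act beside it in blood cell precursors were followed on the arrays: the GATA factors GATA1, GATA2 and GATA3, the GATA1 cofactor ZFPM1, the members of the TAL1 complex TAL1, LYL1, LMO2 and LDB1, and the erythroid and megakaryocytic factors KLF1 and NFE2. Every non-control probe that carries 1 of these 10 gene names, of 30499 on the array, was taken and each was kept apart, which gave 12 of 41000 probes and 21 of 43376 spots. GATA2 and TAL1 had 2 probes each and the other genes had 1. The RNA came from Meg-01, an established line of human megakaryoblasts. The 2 knockdown clones, GATA1 5-13 and GATA1 4-14, were colonies picked from soft agar after infection with GATA1 shRNA lentivirus and selection with puromycin, and were chosen for their decreased GATA1. Each is therefore a single clone, while GATA1 Neg, the control of both, was an uncloned pool that had received a control shRNA by lentivirus. Whether both clones carry the same GATA1 shRNA is not given. RNA of a clone and RNA of GATA1 Neg were hybridized together on 2-colour oligonucleotide arrays, on 2 arrays per clone: on array 1 the clone was labelled red and on array 2 green. The extraction text of the labels names CMK, another megakaryoblastic line, while all other labels name Meg-01.

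The zinc finger protein GATA1 binds GATA motifs in the promoters and enhancers of erythroid and megakaryocytic genes. GATA2 comes before it in development, and the replacement of GATA2 by GATA1 at shared sites is known as the GATA switch. ZFPM1, also called FOG1, binds the amino-terminal finger of GATA1, and a complex of TAL1 or LYL1 with an E protein is joined to GATA factors through LMO2 and LDB1. KLF1 works with GATA1 at red cell genes, and NFE2 is the factor that late megakaryocytes need to release platelets.

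All values below are log2 ratios of the clone over GATA1 Neg on the same array, after normexp background correction and loess normalization. A ratio under 0 means less signal in the clone. Each clone has 1 value, the average of its arrays, the mean is given ± SD over the 2 clones, and it was tested against 0 with limma, with Benjamini-Hochberg adjustment over the 40974 probes with a value. GATA1 Neg was the denominator on every array, so its own spread was not part of the test, and whether 1 preparation of it served all arrays is not given. In such bulk RNA fewer cells that express a gene cannot be told apart from less RNA per cell. The 4 arrays lay on 1 slide with 1 scan time, 0 spots were saturated, and 61.6% to 66.4% of spots were well above background in a channel. All 12 probes were well above background in both RNAs on all 4 arrays, so that no ratio was only a bound. Of the megakaryocytic markers, ITGA2B, ITGB3 and GP9 were above background in GATA1 Neg, while PF4, the platelet chemokine, was at background in every sample. All 7 erythroid markers were above background, against 1 of 8 granulocyte and monocyte genes (LYZ), 3 of 8 lymphoid genes (CD3E, CD79A and PAX5) and 2 of 7 fibroblast and epithelial genes (KRT14 and TACSTD1).

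GATA1 and GATA2 had less signal in both clones than in GATA1 Neg, LMO2 had much less in GATA1 4-14 and slightly less in GATA1 5-13, and the other members lay close to 0 or differed in direction between arrays. No member passed the adjusted threshold of 0.05 (limma; 0 of 12, with 0% of all probes called). At an unadjusted p under 0.05, 3 of 12 were lower, GATA1 and both probes of GATA2, against 4.04% of all probes, and 0 of 12 were higher, against 3.38%, so that 3 of 12 passed in either direction, against 7.42%. Of these, GATA1 is the targeted gene, for whose decrease the clones were chosen, and both other probes read the same gene, GATA2. The count therefore says little about the members as a group. Taking the 4 arrays as 4 values called 2 members (GATA1 and A_23_P110022 of GATA2), with 1240 of all 40974 probes called. This alternative counts the arrays of a clone as separate replicates. An error-weighted mean called 4 members (GATA1, both GATA2 probes and LMO2), with 3416 of all 40974 probes called. Its error score belongs to the reading of a spot and does not measure how clones vary. No other alternative with a test called any member.

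The probes of GATA1, GATA2 (both), LMO2 and NFE2 were lower on all 4 arrays, which is 5 of 12, against 13.4% of all probes and 16.8% of the probes above background in every channel; with median centring of the arrays in place of loess this held for the 2 probes of GATA2 alone. No member was higher on all 4 arrays, against 12.8% of all probes, and 26.2% of all probes had 1 sign throughout. These 5 probes are not 5 independent readings, since 2 of them read GATA2 and all share GATA1 Neg as the control. GATA1 among them is the gene for whose decrease the clones were chosen. The median log2 ratio of the 12 probes was -0.15 in GATA1 5-13 and -0.15 in GATA1 4-14, against -0.002 and 0.0002 over all probes. For the mean of the clones the median was -0.11 over the 12 probes and -0.00022 over all probes. No member reached -0.5 in both clones, against 0.622% of all probes, or 0.5, against 0.405%.

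**Figure D1:**
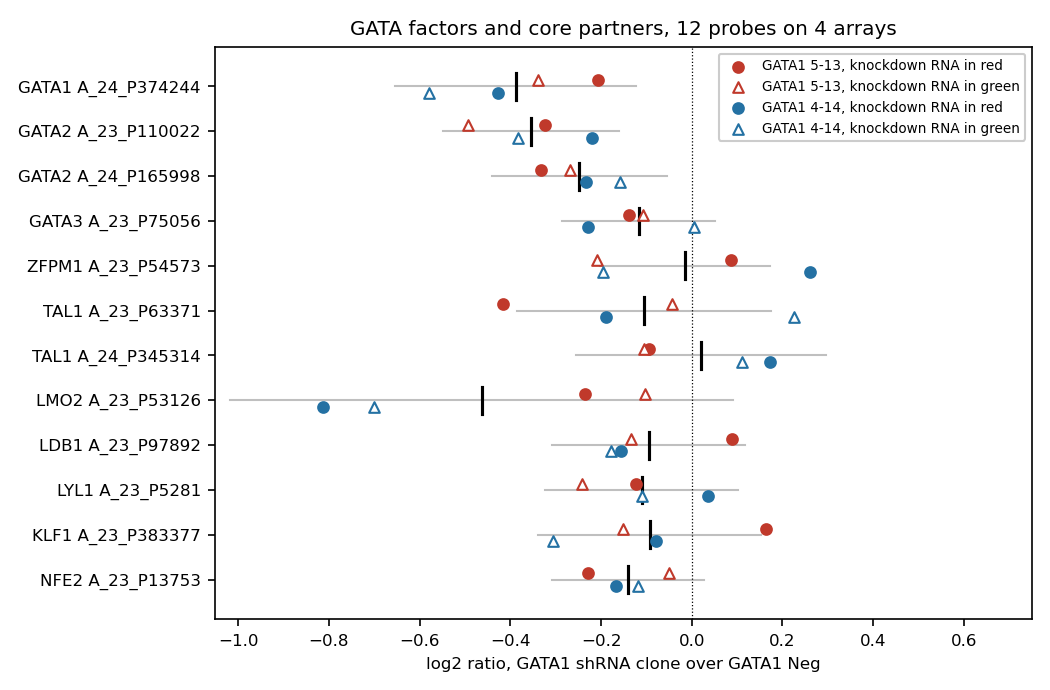
Log2 ratio of clone over GATA1 Neg (x axis) for the 12 probes (y axis). Filled circles are arrays with the clone in red dye and open triangles those with it in green, GATA1 5-13 is drawn in red and GATA1 4-14 in blue, the black tick is the mean of the 2 clones, and the grey line is the 95% interval from limma. The intervals of GATA1 (-0.65 to -0.12) and of both GATA2 probes lie below 0, and that of LMO2 (-1.02 to 0.09) is the widest of the 12.

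GATA1, the gene the shRNA targets, was read by A_24_P374244, which lies on the plus strand of chromosome X at 48535797 to 48536559 in hg18. That span of 763 bases is longer than the 60 of most of the probes, so its bases are not all adjacent in the genome. No annotation of that build was used, so exons are not given here. Its log2 ratio was -0.21 on array 1 and -0.34 on array 2 of GATA1 5-13, and -0.43 and -0.58 on those of GATA1 4-14. All 4 values were below 0 and both of GATA1 4-14 were below both of GATA1 5-13, but with median centring array 1 of GATA1 5-13 stood at 0.05. The clones therefore held 82.7% and 70.6% of the GATA1 signal of GATA1 Neg. The mean was -0.39 ± 0.16 (SD, n = 2 clones; 95% interval -0.65 to -0.12), with an adjusted p of 0.61 from limma. Of all probes, 2.37% had a lower mean than GATA1, which places the targeted gene low in the distribution but not at its end. Since the clones were chosen for decreased GATA1, the direction of this value was part of their choice. The normalized level of GATA1, on the log2 intensity scale, was 10.58 to 10.70 in the 4 channels with GATA1 Neg, 10.38 and 10.36 in GATA1 5-13, and 10.16 and 10.12 in GATA1 4-14, so the groups did not overlap.

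GATA2, the family member of stem cells and early progenitors and a gene that GATA1 is known to repress, was lower in both clones by both of its probes. A_23_P110022 (chromosome 3, 129682136 to 129682195, minus strand) had log2 ratios of -0.32 and -0.49 in GATA1 5-13 and of -0.22 and -0.38 in GATA1 4-14. All 4 were below 0, and the ranges of the clones overlapped. The mean was -0.35 ± 0.08 (SD, n = 2 clones; 95% interval -0.55 to -0.16; limma adjusted p = 0.57), which corresponds to 75.4% and 81.2% of the level in GATA1 Neg.

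The other GATA2 probe, A_24_P165998 (129682795 to 129683354, a span of 560 bases), gave -0.33 and -0.27 in GATA1 5-13 and -0.23 and -0.16 in GATA1 4-14. All 4 were again below 0, here with both arrays of GATA1 5-13 below both of GATA1 4-14. Its mean was -0.25 ± 0.07 (SD, n = 2 clones; limma adjusted p = 0.63), and -0.13 without background correction. The probes share the RNA and the gene, and lie apart on the gene, so they are repeat readings rather than replicates. The order of GATA1 and GATA2 differed between the clones as values: GATA1 was at -0.27 beside -0.41 and -0.30 for GATA2 in GATA1 5-13, and at -0.50 beside -0.30 and -0.20 in GATA1 4-14. The difference between the clones had no test, as each is 1 sample.

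GATA3, the family member known from T cells and mammary epithelium, had log2 ratios of -0.14 and -0.11 in GATA1 5-13 and of -0.23 and 0.005 in GATA1 4-14 (A_23_P75056, chromosome 10, 8155728 to 8155787). One array of GATA1 4-14 thus stood at 0 and the other 3 below it. The mean was -0.12 ± 0.0077 (SD, n = 2 clones; limma adjusted p = 0.71). The probe was the dimmest of the members, with normalized log2 levels of 7.06 to 7.29. The mean was -0.04 without background correction and -0.23 in Feature Extraction's log ratios. The small SD is that of the clone means, and the arrays within GATA1 4-14 differed by far more.

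ZFPM1, the FOG cofactor, had a mean near 0 and signs that followed the dye. A_23_P54573 (chromosome 16, 87128607 to 87128666) had 0.09 and -0.21 in GATA1 5-13 and 0.26 and -0.20 in GATA1 4-14. Both arrays with the clone in red were above 0 and both with the clone in green below it, with dye half-differences of 0.15 and 0.23. The mean was -0.01 ± 0.07 (SD, n = 2 clones; 95% interval -0.20 to 0.17; limma adjusted p = 0.97).

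**Figure D2:**
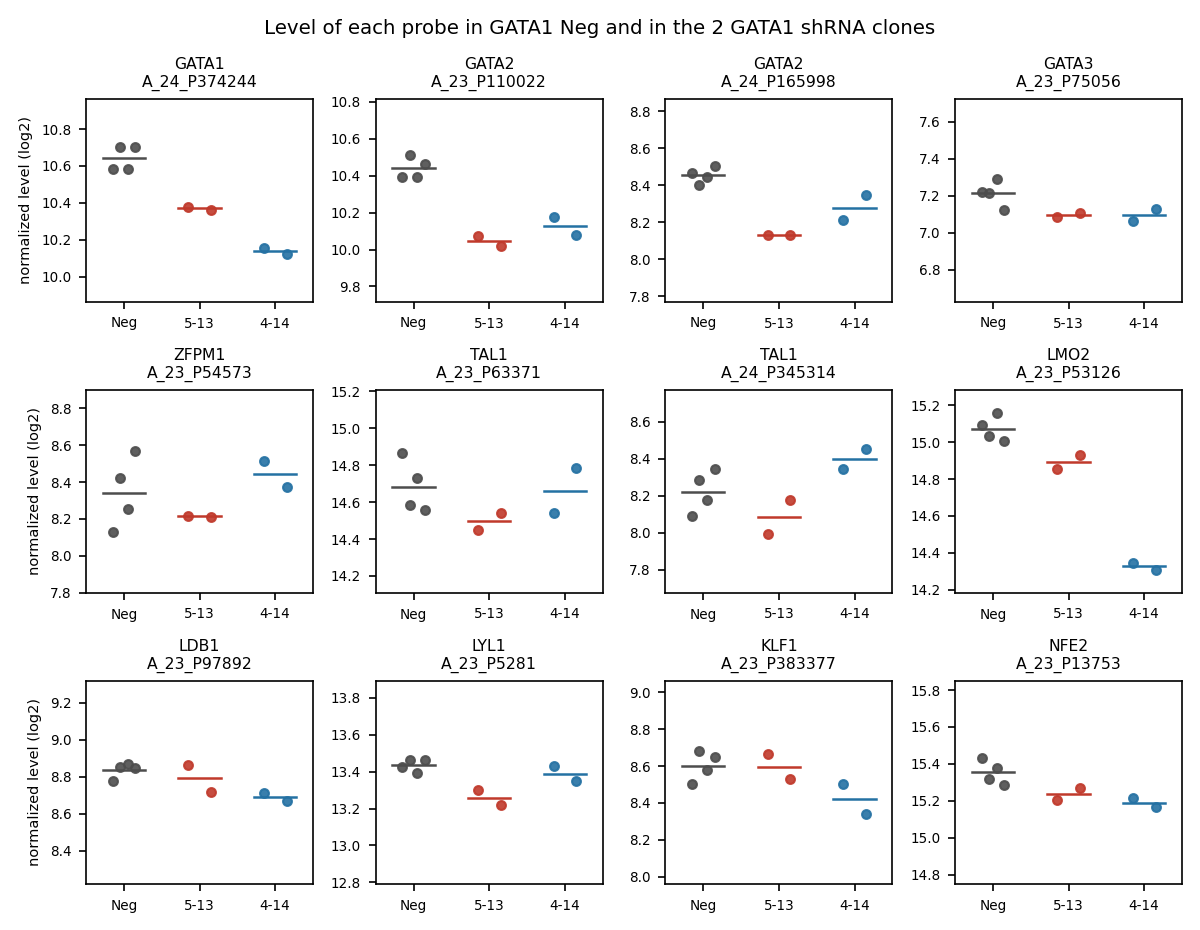
Normalized log2 intensity (y axis, every panel spanning 1.1 log2 units) of the 12 probes in GATA1 Neg (4 channels), GATA1 5-13 and GATA1 4-14 (2 arrays each), with lines at the means. All levels of both clones lie below all of GATA1 Neg in the panels of GATA1, GATA2 (both probes), LMO2 and NFE2, and levels are not comparable between panels.

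All levels of both clones were below all 4 of GATA1 Neg for 5 of 12 probes, against 8.05% of all probes, and above them for 0, against 6.84%. These were the same 5 probes that were lower on all 4 arrays, and come from the same signals.

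LMO2, the LIM-only bridge of the complex, had the lowest mean of the 12 and the largest difference between the clones. A_23_P53126 (chromosome 11, 33836819 to 33836878, minus strand) gave -0.24 and -0.10 in GATA1 5-13 and -0.81 and -0.70 in GATA1 4-14. All 4 values were below 0 and the clones did not overlap, while with median centring array 1 of GATA1 5-13 stood at 0.41. The LMO2 signal was 88.9% of that of GATA1 Neg in GATA1 5-13 and 59.2% in GATA1 4-14. The mean of -0.46 ± 0.42 (SD, n = 2 clones; 95% interval -1.02 to 0.09) did not pass the test (limma adjusted p = 0.68), and the spread between the clones was nearly as large as the mean. Of all probes, 1.63% had a lower mean.

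The LMO2 probe was printed in 10 spots on each array, which gives the spread within an array. Over those spots the median ratio was -0.23 (range -0.29 to -0.18) and -0.09 (-0.17 to -0.05) on the arrays of GATA1 5-13. It was -0.82 (-0.88 to -0.73) and -0.69 (-0.79 to -0.63) on those of GATA1 4-14. Not 1 spot of GATA1 4-14 reached the range of GATA1 5-13, and the SD between spots was 0.0306 to 0.0539 on an array. The difference between the clones, GATA1 5-13 minus GATA1 4-14, was 0.58 with the clones in red and 0.60 with them in green. The spots show how exactly an array was read and say nothing of how clones vary.

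**Figure D3:**
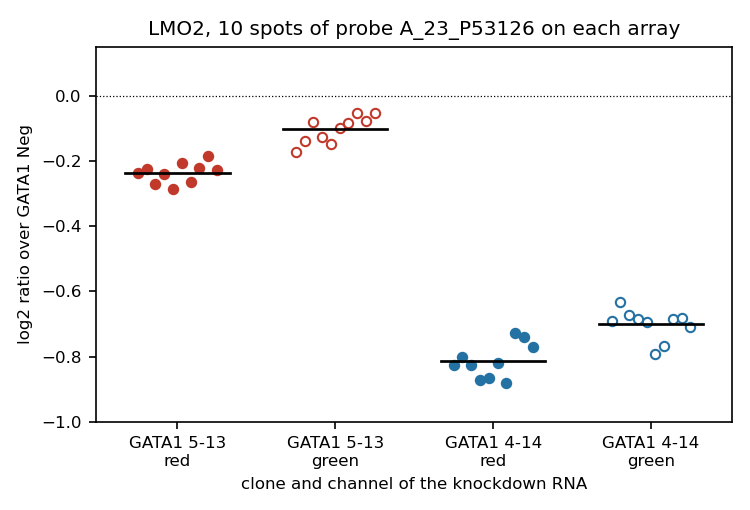
Log2 ratio of clone over GATA1 Neg (y axis) in each of the 10 spots of the LMO2 probe on the 4 arrays (x axis). The spots of GATA1 5-13 lie between -0.29 and -0.05 and those of GATA1 4-14 between -0.88 and -0.63, with no overlap.

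TAL1, the basic helix-loop-helix factor at the centre of the complex, had a probe that lay above GATA1 Neg in 1 clone and below it in the other. The clone value of its other probe was close to 0 in GATA1 4-14. A_24_P345314 (chromosome 1, 47458432 to 47462320, minus strand) gave -0.10 and -0.11 in GATA1 5-13 and 0.17 and 0.11 in GATA1 4-14. Both arrays of the first were below 0 and both of the second above it, which was so for 15.9% of all probes in 1 order or the other. Its mean was 0.02 ± 0.17 (SD, n = 2 clones; limma adjusted p = 0.97). A_23_P63371 (47455005 to 47455064) gave -0.42 and -0.04 in GATA1 5-13 and -0.19 and 0.23 in GATA1 4-14, with a mean of -0.11 ± 0.175 (SD, n = 2 clones; limma adjusted p = 0.80). On this probe the arrays of the clones overlapped and the dye half-differences, 0.19 and 0.21, were as large as the ratios. The difference between the clones was -0.25 here and -0.24 on the other probe.

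LYL1, the close relative of TAL1, and LDB1, the adaptor that dimerizes and brings distant elements together, lay near 0. LYL1 (A_23_P5281, chromosome 19, 13071359 to 13071418) gave -0.12 and -0.24 in GATA1 5-13 and 0.04 and -0.11 in GATA1 4-14, with a mean of -0.11 ± 0.10 (SD, n = 2 clones; limma adjusted p = 0.75). LDB1 (A_23_P97892, chromosome 10, 103859238 to 103859389) gave 0.09 and -0.13 in GATA1 5-13 and -0.16 and -0.18 in GATA1 4-14, with a mean of -0.09 ± 0.10 (SD, n = 2 clones; limma adjusted p = 0.77). Of each, 3 of 4 arrays were below 0, and the clone nearer 0 was GATA1 4-14 for LYL1 and GATA1 5-13 for LDB1.

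KLF1, the zinc finger activator of the adult beta-globin gene, had no common direction. A_23_P383377 (chromosome 19, 12857267 to 12857326) gave 0.16 and -0.15 in GATA1 5-13 and -0.08 and -0.30 in GATA1 4-14. The mean was -0.09 ± 0.14 (SD, n = 2 clones; limma adjusted p = 0.80), with GATA1 5-13 at 0.007 and GATA1 4-14 at -0.19.

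NFE2, the blood-restricted subunit of its dimer, was slightly lower in both clones. A_23_P13753 (chromosome 12, 52972246 to 52972305) gave -0.23 and -0.05 in GATA1 5-13 and -0.17 and -0.12 in GATA1 4-14. All 4 were below 0 and the clones overlapped, but with median centring the arrays with the clone in red stood at 0.46 in both clones, and in Feature Extraction's own log ratios array 2 of GATA1 5-13 was at 0.007. The mean was -0.14 ± 0.0026 (SD, n = 2 clones; limma adjusted p = 0.68).

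The promoters of KLF1, LYL1 and TAL1 are shown because they are those of the member genes in which the 250 bases before an annotated start hold a GATA word, and that of GATA1 because it is the targeted gene. Sequences are from RefSeq, build GRCh38.p14, and 8 of the 10 genes, with 15 promoters, were matched there. Those of LMO2 and NFE2 were not. The words searched were AGATAA and the form AGATAG, together with TGATAA and the form TGATAG, on both strands. Each sequence runs 5′ to 3′ on the strand of the gene and ends at the base before the start. Capitals mark a word, which in all 4 cases lies on the opposite strand and is thus read as its reverse complement.
GATA1 (chrX:48786340-48786589, plus strand): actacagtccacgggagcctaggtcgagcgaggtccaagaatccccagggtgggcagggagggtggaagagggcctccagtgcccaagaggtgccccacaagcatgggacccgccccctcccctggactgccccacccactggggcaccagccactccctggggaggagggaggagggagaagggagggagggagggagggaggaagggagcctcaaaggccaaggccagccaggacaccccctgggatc
KLF1 (chr19:12887202-12887451, minus strand): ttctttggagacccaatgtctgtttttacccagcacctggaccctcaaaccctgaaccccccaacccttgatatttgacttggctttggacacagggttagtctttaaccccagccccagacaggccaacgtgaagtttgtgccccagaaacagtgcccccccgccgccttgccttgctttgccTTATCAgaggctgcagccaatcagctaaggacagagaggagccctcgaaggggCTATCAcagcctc
LYL1 (chr19:13102859-13103108, minus strand): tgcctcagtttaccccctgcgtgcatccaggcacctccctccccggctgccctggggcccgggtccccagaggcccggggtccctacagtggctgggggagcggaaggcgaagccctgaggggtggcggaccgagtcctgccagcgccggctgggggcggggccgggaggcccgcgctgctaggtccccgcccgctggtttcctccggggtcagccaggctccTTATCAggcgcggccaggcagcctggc
TAL1, the promoter with a word (chr1:47232336-47232585, minus strand): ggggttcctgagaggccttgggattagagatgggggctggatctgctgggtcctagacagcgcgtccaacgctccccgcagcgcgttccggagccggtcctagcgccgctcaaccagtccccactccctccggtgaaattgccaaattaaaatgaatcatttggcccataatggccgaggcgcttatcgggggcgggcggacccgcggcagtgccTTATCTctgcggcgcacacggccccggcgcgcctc

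KLF1 held TGATAA at 66 and TGATAG at 13 bases before the start, LYL1 held TGATAA at 27, and TAL1 held AGATAA at 35, while no word was found in this window of GATA1. A word was present in 3 of the 15 promoters of the members, against 22.3% of 35116 promoters of the same length, and 2 or more words in 4.96% of them. The E-box CANNTG, the motif of TAL1 with its E protein partner, was in 5 of the 15, against 61.8% of all promoters. The 3 genes with a word had means between -0.11 and 0.02 on the arrays. A match in letters is a description of the sequence and does not show a bound site.

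Over the members, the arrays of the clones did not overlap for 6 of 12 probes, close to the 49.5% of all probes. GATA1 4-14 lay below GATA1 5-13 for GATA1, LMO2 and LDB1, which is 3 of 12 against 24.2% of all probes, and above it for the GATA2 probe A_24_P165998, LYL1 and the TAL1 probe A_24_P345314, which is 3 of 12 against 25.2%. Differences of this kind between the clones were thus about as frequent among the members as elsewhere on the array. The size of the difference for LMO2, 0.59, stood apart from the others, of which the next was -0.25 for the TAL1 probe A_23_P63371. The clones share GATA1 Neg as the control, so the closeness of their values for a probe is not independent evidence.

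**Figure D4:**
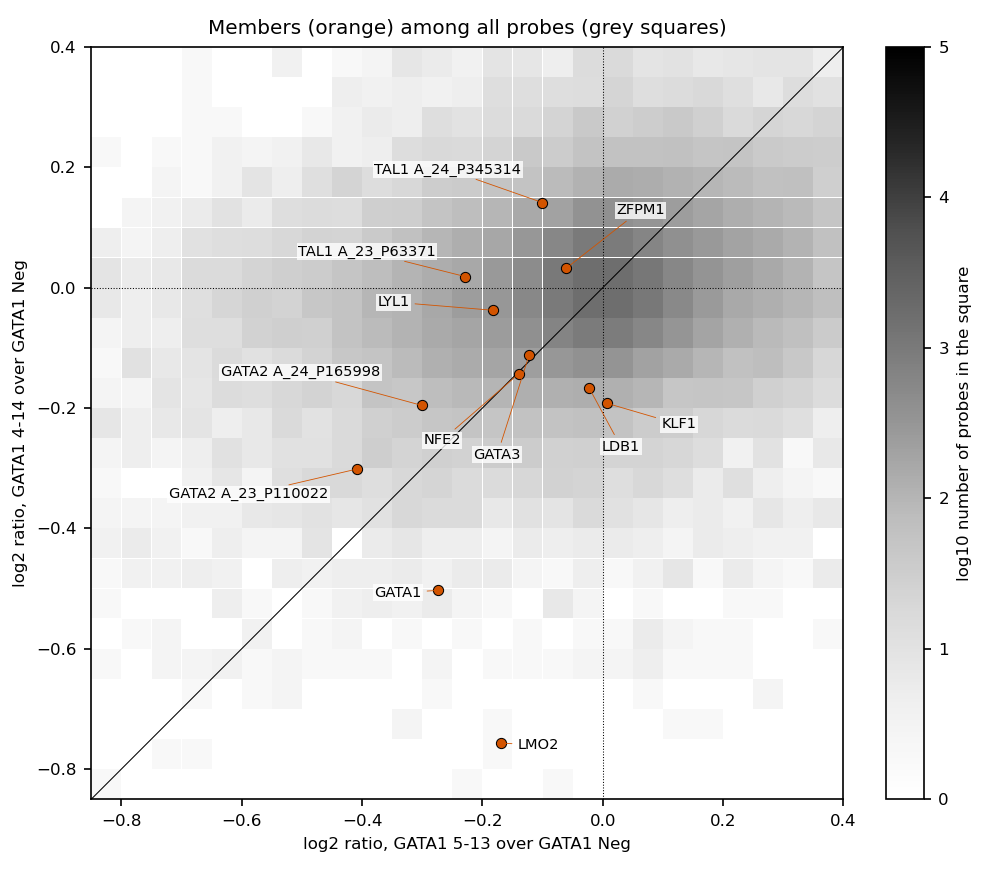
Log2 ratio over GATA1 Neg in GATA1 5-13 (x axis) and in GATA1 4-14 (y axis), each the mean of 2 arrays. Orange points are the 12 member probes and grey shading shows on a log10 scale how many of all probes fall in each square of 0.05. GATA1 and both GATA2 probes lie in the lower left, LMO2 lies low on the y axis at -0.76 with -0.17 on the x axis, and the scatter of all probes is wider along the x axis (SD 0.287) than along the y axis (SD 0.202).

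The probes with the pattern most like that of GATA1 were sought among 16428 probes of other named genes above background in every channel, by the Euclidean distance over the 4 log2 ratios. The nearest were SCPEP1 (distance 0.0435), GPR56 (0.093), SCN9A (0.0932), MAFF (0.104) and FIGNL1 (0.115). Within a distance of 0.1 there were 3 probes, and within 0.3 there were 94. MAFF, a small Maf protein that pairs with NFE2, had -0.23 in GATA1 5-13 and -0.49 in GATA1 4-14. Likeness over 4 arrays of 2 clones is a description.

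The relatives and partners of the members were taken from 8 lists, without the members themselves, and no probe of any list passed the adjusted threshold (limma). Counts are given at an unadjusted p under 0.05, against 4.04% lower and 3.38% higher of all probes. Other GATA-type and FOG genes had 0 of 11 probes lower and 1 higher, TRPS1, a GATA-type repressor, at 0.38 in GATA1 5-13 and 0.22 in GATA1 4-14. Partners and relatives of NFE2 had 4 of 16 lower and 1 higher. The lower ones were a probe of BACH1 (-0.34 and -0.56), a repressor that competes with NFE2 for small Maf partners, MAFF, and both probes of NFE2L3 (-0.56 and -0.38, and -0.42 and -0.35). The other BACH1 probe, A_24_P299034, was at -0.08 and -0.22. The higher one was NFE2L2, the oxidative stress factor, at 0.44 and 0.17 on A_23_P5761, while its other probe, A_24_P936444, was at -0.18 in GATA1 5-13 and 0.23 in GATA1 4-14. These genes were named after their values were seen. Of the 25 probes of the 8 lists under that p, all kept the sign of their mean with median centring, but 8 kept 1 sign on all 4 arrays. TRPS1 and both NFE2L3 probes were among these 8, while BACH1 A_23_P211047, MAFF and NFE2L2 A_23_P5761 were not.

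E proteins, ID proteins and other genes of the TAL1 complex had 4 of 29 lower and 1 higher. The lower ones were LMO3 and LMO4 (-0.67 and -0.23), relatives of LMO2, CBFA2T3 (-0.64 and -0.32), the corepressor ETO2, and SSBP3 (-0.18 and -0.25), a partner of LDB1. The higher one was TCF12, the E protein HEB, at 0.32 in GATA1 5-13 and 0.15 in GATA1 4-14. Apart from LMO3 these were named after their values were seen. LMO3 was at -0.34 in GATA1 5-13 and -0.74 in GATA1 4-14, the order also seen for LMO2, with a mean of -0.54 ± 0.29 (SD, n = 2 clones; limma adjusted p = 0.62). With median centring LMO3 stood at 0.04 on array 1 of GATA1 5-13, and LMO4, CBFA2T3, SSBP3 and TCF12 did not keep 1 sign either. Of the other KLF genes, 2 of 27 probes were lower and 0 higher, and KLF7 had the lowest mean among those with 1 sign on all arrays, at -0.93 and -0.36 (limma adjusted p = 0.65). The other lower one was a probe of KLF3 (-0.16 and -0.30). The remaining KLF3 probe, A_24_P414376, was at -0.02 and -0.28. Chromatin cofactors of GATA1 had 2 of 43 lower and 1 higher, which is near the share of all probes. The lower ones were HDAC2 (-0.39 and -0.24), a deacetylase, and a probe of PPARBP (-0.26 and -0.24), the Mediator subunit now called MED1. With median centring HDAC2 stood at 0.10 and 0.25 on the arrays with the clone in red, and the other PPARBP probe had 0.07 and 0.0037. The higher one was a probe of MTA3 (0.23 and 0.24), a subunit of the NuRD complex, whose other probe was lower on all 4 arrays (-0.13 and -0.11). These were named after their values were seen.

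Of the genes that GATA1 is known to activate, the erythroid ones had medians of opposite sign in the clones. Their median was 0.19 in GATA1 5-13 and -0.18 in GATA1 4-14 over 34 probes, with 4 lower and 2 higher at the unadjusted threshold. Besides a probe of ANK1 (-0.40 and -0.25), a cytoskeletal anchor of the red cell membrane, the lower ones were a probe of HBE1, embryonic globin, and 2 probes of EPOR, the erythropoietin receptor (-0.29 and -0.32, and -0.28 and -0.29). Another ANK1 probe, A_23_P216108, was at -0.47 and -0.15. The remaining probes of ANK1 (0.08 and 0.05) and EPOR (-0.0044 and 0.04) were not above background in every channel. The HBE1 probe, A_23_P47665, was not well above background in either clone and was at least 1.25-fold lower there than in GATA1 Neg, with the floor set per array by the dimmest probe well above background. The other HBE1 probe, A_24_P355568, was above background in every sample and gave 0.50 in GATA1 5-13 and -0.44 in GATA1 4-14. The higher ones were FECH (0.24 and 0.25), the last enzyme of haem synthesis, and RHAG (0.31 and 0.16), a red cell membrane glycoprotein. With median centring RHAG stood at 1.04 and 0.79 with the clone in red and at -0.38 and -0.45 with it in green. Megakaryocytic targets had medians of -0.10 in GATA1 5-13 and -0.0049 in GATA1 4-14 over 25 probes, with 2 lower and 1 higher. The 2 lower ones were the probes of ITGA2B, the platelet fibrinogen receptor subunit, at -0.42 and -0.18, and at -0.38 and -0.19, and with median centring both stood above 0 on the arrays with the clone in red (0.0013 to 0.19). The higher one was the probe of RAB27B, a GTPase of platelet granules, which was not well above background in any sample, so no fold is given. Apart from the gene that follows, these targets were named after their values were seen. GP1BA, the von Willebrand factor receptor subunit, was at -1.68 in GATA1 5-13 and -0.16 in GATA1 4-14, a mean of -0.92 ± 1.07 (SD, n = 2 clones; limma adjusted p = 0.71). Its other probe, A_24_P270829, was at -0.10 and -0.0049 and was not above background in every channel.

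Genes that GATA1 is known to repress, without GATA2, had medians of -0.16 and -0.05 over 7 probes, with 0 lower and 0 higher at the unadjusted threshold. KIT, the stem cell factor receptor, was at -0.29 in GATA1 5-13 and -1.06 in GATA1 4-14, a mean of -0.67 ± 0.54 (SD, n = 2 clones; limma adjusted p = 0.68). KIT and GATA2 were lower in both clones as values that did not pass the adjusted test, and with median centring KIT stood at 0.015 on array 1 of GATA1 5-13. The rest of the list was mixed. In GATA1 5-13 and GATA1 4-14, HHEX was at -0.23 and -0.13, MYB at -0.28 and 0.0027, and SPI1 at 0.33 and 0.0013. The probes of MYC were at -0.16 and 0.19, at -0.15 and -0.19, and at 0.0072 and -0.05. Apart from KIT, these were named after their values were seen.

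**Figure D5:**
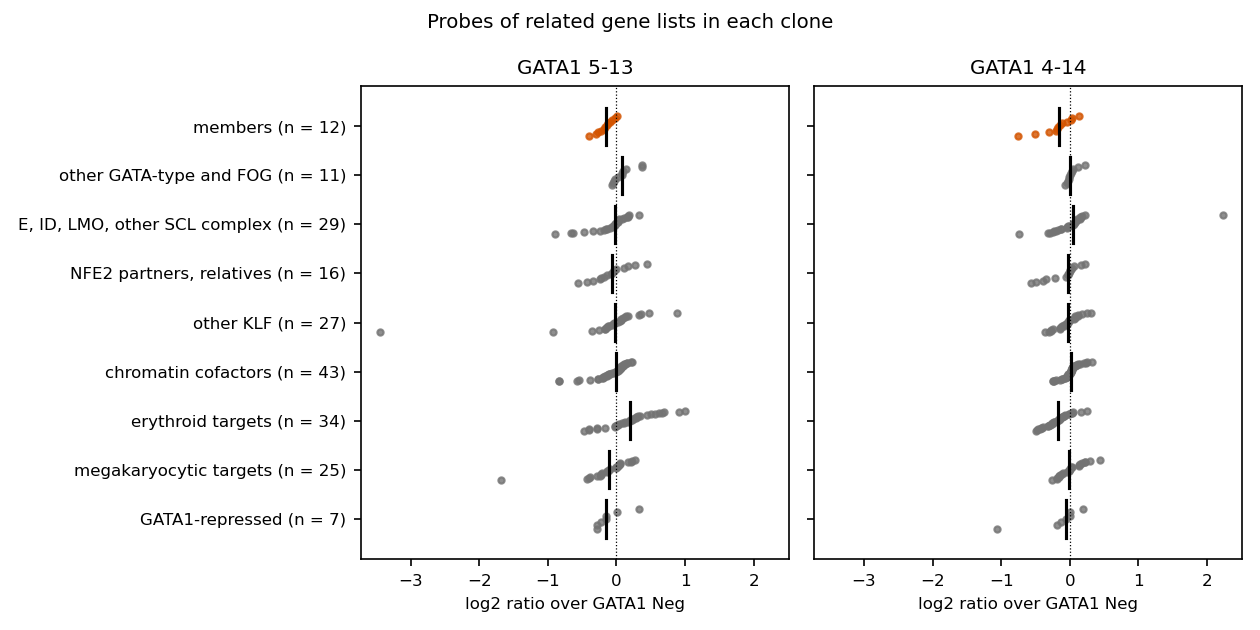
Log2 ratio over GATA1 Neg (x axis) of every probe of the members (orange) and of the 8 related lists (y axis), in GATA1 5-13 and in GATA1 4-14. Black ticks are medians, and those of the erythroid targets lie at 0.19 in GATA1 5-13 and at -0.18 in GATA1 4-14.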

How the data were processed

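Arrays were read by the authors with Agilent's Feature Extraction, version 9.5.3.1, and hg18 gives the probe positions. The deposited intensity values, a mean for the spot and a median for the background around it in each channel, are linear and not normalized. The deposited log10 ratio of each spot, and the error score the authors' program gave with it, were used in alternatives alone. The table deposited for the whole series held these log10 ratios again, turned to knockdown over control, with a largest difference of 4.97e-06. The authors' combination of arrays in Rosetta Resolver was not repeated here.

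With limma 3.58.1 in R 4.3.3, intensities were background-corrected with normexp (offset 50) and normalized by loess within each array, with control spots at weight 0. Outlier spots, 135 to 152 of 43376 per array, were then left out, spots of a probe averaged and signs turned. The arrays of a clone were taken as a dye swap of 1 pair of RNAs. The moderated test was two-sided, on the mean of the 2 clones against 0, over 40974 probes. Whether the clones' arrays came from separate cultures is not given, and the number of arrays limits the precision. Levels per channel were made with Aquantile after loess. The tests were tried on simulated data with effects larger than the mean of any member, so that trial does not show the power for the members.

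Members and gene lists were chosen with earlier results of these data known. Genes named besides the members were, of each list, those with 1 sign on all 4 arrays, a mean log2 ratio of 0.5 or more in size and signal above background, at most the 4 largest, and the 5 probes nearest to GATA1; others are said to be named after their values were seen. Results were recomputed with uncorrected intensities, with Feature Extraction's ratios as scanned or as in the deposited table, with median centring, with dim probes removed, with outlier spots included, with an intensity trend, with an error-weighted mean, with all 4 arrays as values (replicate block or none), and with single arrays or clones left out.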

Additional observations from a re-analysis of the deposited data

Results flagged for a closer look

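The TAL1 probe A_24_P345314 was below GATA1 Neg on both arrays of GATA1 5-13 and above it on both of GATA1 4-14, with a difference of -0.24 on the log2 scale between them (GATA1 5-13 minus GATA1 4-14). The difference was not tested, and 15.9% of all probes had opposite signs in this way. The other TAL1 probe, A_23_P63371, was not among them, with -0.42 and -0.04 in GATA1 5-13 and -0.19 and 0.23 in GATA1 4-14.

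Of the related lists, 4 probes above background in at least 1 RNA had opposite signs in the same way and a difference of 1 or more on the log2 scale. The share of all probes that meet this rule is not given here, so whether 4 is many or few cannot be told. RUNX1T1, known as the corepressor ETO, had a difference of -3.12, with -0.90 and -0.88 in GATA1 5-13 and 2.17 and 2.29 in GATA1 4-14 (A_23_P216307), while its other probe, A_23_P427278, was not above background in either clone. ALAS2, the erythroid enzyme that starts haem synthesis, had differences of 1.07 (A_32_P385587) and 1.11 (A_32_P22654), with GATA1 5-13 the higher clone. KLF2 had a difference of 1.02 on A_23_P119196, with 0.95 and 0.83 in GATA1 5-13 and -0.14 and -0.12 in GATA1 4-14. The other KLF2 probe, A_24_P151305, was at 0.06 in GATA1 5-13 and at -0.03 in GATA1 4-14, where it was not well above background. These differences were not tested either.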

How the results depend on the processing

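The number of probes called at an adjusted p under 0.05, which was 0 of all 40974 and 0 of the members (3042 and 3 at an unadjusted p under 0.05), depended on what was taken as the spread. Taking the 4 arrays as 4 values with no replicate block called 1240 probes and 2 members. With the replicate number as a replicate block it was 269 and 0. That number marks the dye orientation, and whether same-numbered arrays also shared a culture or a preparation of GATA1 Neg is not given. Same-numbered arrays deviated together from their clone's mean (r = 0.773 over probes), and the source of this was not tested. The error-weighted mean of Feature Extraction's log ratios called 3416 probes and 4 members, with adjusted p from 0.00099 (LMO2) to 0.045 (A_24_P165998). The error used there is that of reading a spot and not the spread between clones, which for LMO2 were at -0.17 and -0.76. Over all alternatives with a test, adjusted p ranged from 0.0027 to 0.67 for GATA1 and from 0.00099 to 0.78 for LMO2. The filter on dim probes called 1 probe of 24751, as did the intensity trend of 40974. Leaving out 1 array called 0 to 1 probes and 0 members.

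Of 192 values of member probes over 16 alternatives, 8 changed sign, all of probes with a mean between -0.11 and 0.02. ZFPM1 was 0.0012 in Feature Extraction's log ratios and in the series table, and 0.0322 without GATA1 5-13. Without single arrays it ranged from -0.1287 to 0.0999, and was above 0 without replicate 2 of GATA1 5-13 (0.0592) or of GATA1 4-14 (0.0999). Without GATA1 5-13, TAL1 A_23_P63371 was 0.0185. Without GATA1 4-14, TAL1 A_24_P345314 was -0.10 and KLF1 was 0.007. Without background correction, GATA2 A_24_P165998 was -0.13, GATA3 -0.04, KLF1 -0.04 and LDB1 -0.05, and Feature Extraction's log ratios put GATA3 at -0.23. Leaving out a clone leaves 1 sample and no test, and moved LMO2 to -0.17 or -0.76 and GATA1 to -0.27 or -0.50. The cause of these shifts was not tested.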

Other observations

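KLF12, a repressor of the KLF family, was far below GATA1 Neg in 1 clone alone. Its probe A_23_P354805 was not well above background on either array of GATA1 5-13, where it was at least 9.08-fold lower than in GATA1 Neg, with the floor set per array by the dimmest probe well above background. In GATA1 4-14 it gave log2 ratios of 0.008 and -0.08, which is 97.5% of the signal of GATA1 Neg. It was named after its values were seen.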
